A study of Macaca mulatta with 20 samples.

Results

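The interleukin receptors described here are 9 genes, IL2RB, IL2RG, IL4R, IL6R, IL6ST, IL10RA, IL10RB, IL13RA1 and IL17RA. They were measured in whole blood of rhesus macaques (non-human primates, NHP) before and after X-irradiation of the whole thorax. They were read by all array probes that carry one of these gene names and were well above background on at least 5 of the 20 arrays. All 9 genes had such a probe, among 15929 of the 25992 gene names on the array. There were 21 such probes of 21, among 19961 of 34127 probes in all that passed the same filter. For 20 of the 21, the spot was well above background on all 20 arrays. The exception was IL4R probe A_33_P3395947, which was well above background on 3 pre-irradiation, 1 day 2, 1 day 5 and 2 day 30 arrays.

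The study asked how gene expression in blood cells changes over the month after a high dose to the lungs. The groups were blood drawn before irradiation (pre-irradiation) and 2, 5 and 30 days after a single dose of 10 Gy to the thoracic region, with 5 arrays in each. Per the study's methods the animals were males of Chinese origin and received no mitigator, and the earliest blood was drawn before any exposure. The only controls are thus the same animals at an earlier time, with no sham-irradiated NHP. The labels speak of 8 NHP, and RNA for a single array was pooled from a pair of animals, which the labels do not identify. The RNA was depleted of globin transcripts and hybridised to human arrays, so all probes are human sequence, and their match to the macaque transcripts was not tested.

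Interleukin receptors are assembled from a chain that binds the ligand and a chain shared with other receptors. IL2RB and IL2RG, the common gamma chain, carry the signals of IL-2 and IL-15 in T and NK cells, and IL4R pairs with IL2RG or with IL13RA1 to receive IL-4 and IL-13. IL6R binds IL-6 and passes it to IL6ST (gp130), IL10RA and IL10RB form the IL-10 receptor, and IL17RA is the shared chain of the IL-17 receptors. All but IL17RA signal through JAK kinases and STAT factors, while IL17RA uses the adaptor TRAF3IP2 (Act1) and TRAF proteins.

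The results turn on probes of IL2RG, IL6ST and IL13RA1, and 4 of their 60-base probes that lie in protein-coding sequence are shown here because they define which part of the receptor transcript was read. The IL2RG probe reads codons of the membrane-spanning segment, the first IL6ST probe codons just inside the membrane, where JAK kinases bind, and the second IL6ST probe codons outside it. The IL2RG probe covers hg19 chrX:70328480-70328539 on the minus strand. The first IL6ST probe covers chr5:55238513-55238572 and the second chr5:55256263-55256322, both on the minus strand. The IL13RA1 probe lies at chrX:117892164-117895118 on the plus strand, so its 60 bases are spread over 2955 bases of the genome and cross an intron.
IL2RG A_23_P148473: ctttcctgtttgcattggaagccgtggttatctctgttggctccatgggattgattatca
IL6ST A_33_P3233841: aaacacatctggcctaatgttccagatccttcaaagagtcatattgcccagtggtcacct
IL6ST A_33_P3287338: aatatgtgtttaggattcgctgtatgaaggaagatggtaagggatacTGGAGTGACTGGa
IL13RA1 A_24_P288685: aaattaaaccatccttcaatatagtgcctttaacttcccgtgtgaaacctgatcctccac

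Capitals in the second IL6ST probe mark codons of the tryptophan-serine motif, which class I cytokine receptors carry in the part of the protein outside the cell. The search was for a TGG codon, an AGT codon, any codon and a TGG codon in a row, on both strands, which is 1 of the ways to encode that motif. Such runs were found in 1 of the 21 receptor probes and in 30 of all 34127 probes (0.088%). The probes of the other genes are given by name only.

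Levels are given as the log2 processed signal minus the 75th percentile of the same array, so a value of 1 lies a doubling above that percentile. A level describes 1 probe over time, and levels of different probes are not compared. A change was called at p under 0.005 and a false discovery rate (FDR) under 10% over all 19961 probes, in limma, with arrays paired through their replicate number. All comparisons with pre-irradiation used the same 5 pre-irradiation arrays. On each slide the 4 groups always held the same array positions, so position and time cannot be told apart. Between 50.9% and 58.8% of the spots were well above background on 19 arrays, and 67.3% on the day 5 array of replicate 3. Markers of whole blood were present: 6 of 6 general leukocyte genes, 12 of 12 T cell genes and 7 of 7 erythroid genes were well above background on all 5 arrays of every group. So were 8 of 8 B cell and 8 of 8 monocyte genes tested. On all 5 pre-irradiation arrays, 8 of 10 neutrophil genes, 11 of 12 NK cell and cytotoxic lymphocyte genes and 6 of 7 platelet genes were.

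No receptor probe was called in any of the 6 comparisons between time points. At day 2 versus pre-irradiation 0 of 21 receptor probes were called, against 11 of all 19961 probes (0.0551%). At an unadjusted p under 0.05, 5 receptor probes were higher, where 8.91% of all probes were, and 7 were lower, where 5.92% of all probes were. The 5 higher probes were both of IL13RA1 and all 3 of IL17RA, and the 7 lower ones were those of IL2RB, 1 of IL4R and 5 of IL6ST. Probes of a gene read transcripts of the same gene and are not independent. The IL4R probes are annotated to transcript variants 1 and 4, and the IL6ST probes to variants 1 and 3. The median change of the 21 receptor probes was -0.23 on the log2 scale, against -0.02 for all probes tested.

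At day 5 versus pre-irradiation 0 of 21 receptor probes were called, as were 0 of all probes (0%). At an unadjusted p under 0.05, 2 receptor probes were higher, both of IL13RA1, against 7.2% of all probes. A further 4 were lower, those of IL2RB, both of IL2RG and 1 of IL4R, against 4.15% of all probes. The median change of the receptor probes was -0.18, beside 0.02 for all probes. Without replicate 3, whose day 5 array had the most spots above background, 0 of 21 were called, and the change at day 5 was -0.72 for IL2RB and 0.88 for IL13RA1 A_24_P288685.

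At day 30 versus pre-irradiation 0 of 21 receptor probes were called, against 4 of all probes (0.02%). At an unadjusted p under 0.05, 3 were higher, both of IL13RA1 and 1 of IL17RA, against 8.58% of all probes. A further 7 were lower, 1 each of IL2RG and IL4R and 5 of IL6ST, against 8.97% of all probes. The median change of the receptor probes was -0.13, beside 0.01 for all probes. Probes that moved the same way in every pair are named below. Among all probes, every pair was lower for 7.43% at day 2, 6.13% at day 5 and 9.51% at day 30 versus pre-irradiation. Every pair was higher for 6.5%, 7% and 8.36%. At day 30 every pair was higher than at day 2 for 7.62% and higher than at day 5 for 4.69%.

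**Figure D1:**
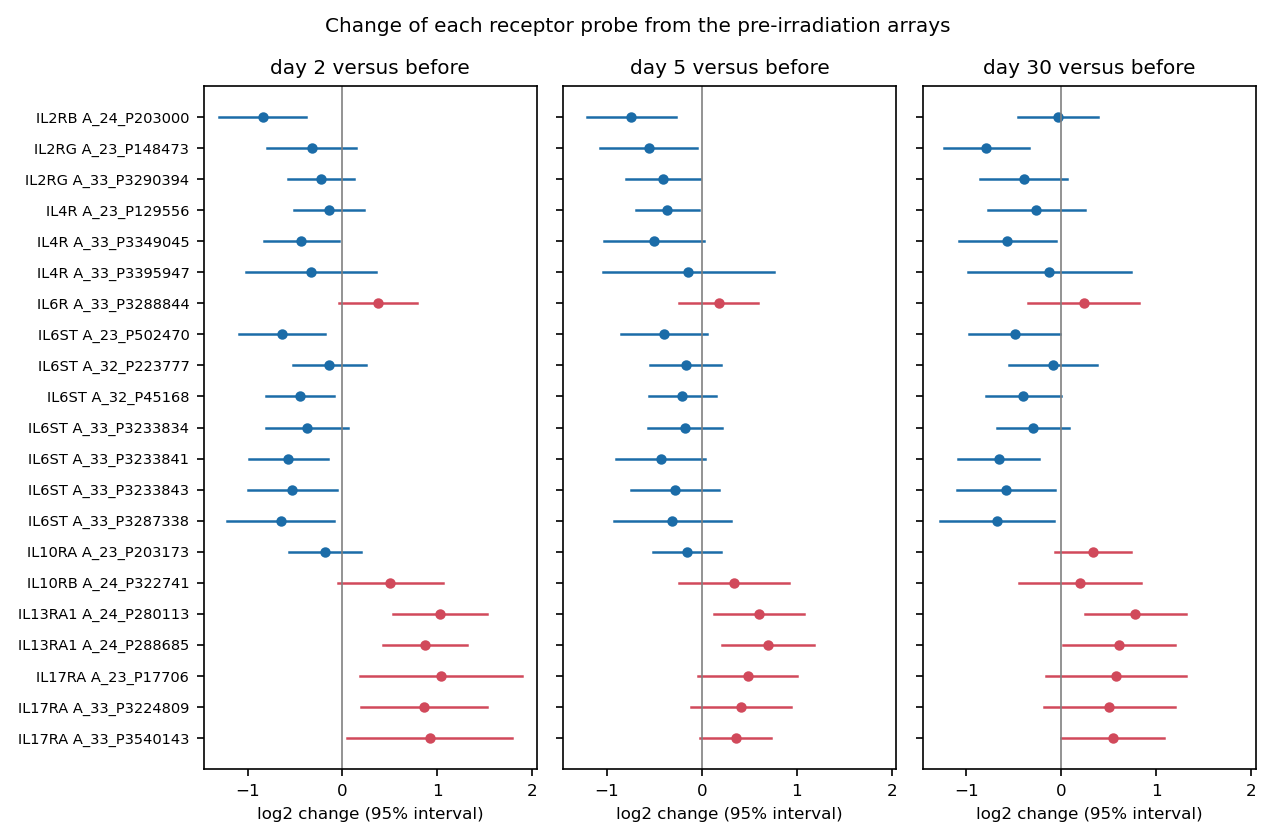
Log2 change of each of the 21 receptor probes on each of the 3 days after irradiation relative to pre-irradiation, with points for the fitted change (5 pairs of arrays), lines for its 95% interval, red for higher and blue for lower. IL13RA1 lay above 0 on every day, all 7 IL6ST probes lay below 0 with the scaling plotted here, though with normexp correction 3 lay above 0 at day 2 and 1 at day 30, and IL2RB was at -0.84, -0.74 and -0.03 on the 3 days.

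IL2RB, the signalling chain shared by the IL-2 and IL-15 receptors, was lower at days 2 and 5 and at its earlier level at day 30. The pre-irradiation levels of replicates 1 to 5 were 1.24, 0.95, 1.29, 2.02 and 1.62. At day 2 they were 0.54, 0.56, 0.70, 1.10 and 0.03, and at day 5 they were 1.01, 0.40, 0.45, 1.43 and 0.12. Every replicate was lower than its own pre-irradiation array on both days, though the groups overlapped. At day 30 the levels were 1.41, 1.30, 1.17, 1.50 and 1.59, within the range seen before irradiation.

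The change of IL2RB was -0.84 ± 0.20 (SE) at day 2, or 1.79-fold lower (adjusted p = 0.175 in limma). At day 5 it was -0.74 ± 0.20 (adjusted p = 0.321), and at day 30 it was -0.03 ± 0.18, with a 95% interval from -0.45 to 0.39. The value at day 30 was so near 0 that its sign turned with median scaling (0.01) and without replicate 4 (0.09). In order of mean level, pre-irradiation (1.43 ± 0.41, SD, n = 5) and day 30 (1.39 ± 0.16) lay side by side above day 5 (0.68 ± 0.53) and day 2 (0.58 ± 0.38), and days 5 and 2 differed by 0.10 with an interval from -0.31 to 0.51.

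Between the days, 0 of 21 receptor probes were called at day 30 versus day 2, against 11 of all probes (0.0551%). At an unadjusted p under 0.05, 2 were higher, those of IL2RB and IL10RA, against 6.03% of all probes, and 1 of IL2RG was lower, against 6.95%. IL2RB was higher at day 30 than at day 2 in 5 of 5 pairs, by 0.81 ± 0.20 or 1.75-fold (adjusted p = 0.33). Its arrays of those days did not overlap, as for 0.962% of all probes in that direction. IL2RB was called at day 2 (adjusted p = 0.0649) and at day 30 versus day 2 (adjusted p = 0.0951) when all 20 arrays were fitted together, and at day 2 without replicate 2 (adjusted p = 0.0985).

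The summed level of 12 NK cell and cytotoxic lymphocyte genes was also lower at day 2, but it did not follow IL2RB in every pair. It lay between 6.39 and 7.48 before irradiation, 5.16 and 6.31 at day 2, 5.48 and 7.27 at day 5, and 6.96 and 7.96 at day 30 (log2). Of the 12 genes, 11 were lower at day 2, with a median change of -1.31, and 12 of 12 were higher at day 30 than at day 2. By the rule of the report 1 of the 12 was called at day 2 and 4 at day 30 versus day 2. Among all 19961 probes 11 (0.0551%) were called in each of these comparisons. At day 5 the sum was above its own pre-irradiation array in replicates 1 (7.12 against 7.00) and 4 (7.27 against 7.06). IL2RB was lower in both. At day 30 versus pre-irradiation 8 of the 12 genes were higher and 4 lower (median change 0.11). At an unadjusted p under 0.05 in limma 4 were higher, against 8.58% of all probes. IL2RB is not in that list, and the part of these cells in its level was not tested. In whole blood, fewer cells of a type and less RNA in each cell cannot be told apart. The gene most like IL2RB over the 20 arrays was KLRC1, a lectin-like receptor of NK cells (Pearson r = 0.905, as a description), followed by SEMA4C (0.901) and NUAK1 (0.877). The 20 arrays behind these correlations share animals, slides and time points.

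IL2RG, the common gamma chain, had a lower mean than before irradiation on every day by both of its probes, which followed each other (r = 0.804 over 20 arrays). Probe A_23_P148473, whose sequence is given above, stood at 2.49, 2.85, 2.89, 3.33 and 2.74 before irradiation. It stood at 2.79, 2.84, 2.53, 2.53 and 1.99 at day 2 and at 2.74, 2.57, 1.89, 2.59 and 1.71 at day 5. Levels on those days overlapped with those before irradiation. At day 30 the levels were 2.18, 2.39, 1.68, 2.37 and 1.73, all below the lowest pre-irradiation array. The groups did not overlap in this direction for 0.992% of all probes.

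For this IL2RG probe the change was -0.33 ± 0.20 at day 2, -0.56 ± 0.22 at day 5 and -0.79 ± 0.19 at day 30, the last 1.73-fold lower (adjusted p = 0.149). It was lower in 5 of 5 pairs at day 30, and lower at day 30 than at day 2 by 0.46 ± 0.15 (adjusted p = 0.359). The lower level at day 30 was called in 4 of the other settings tried, with adjusted p from 0.023 to 0.0933. The second probe, A_33_P3290394 at hg19 chrX:70327271-70327330, stood at 5.00, 4.76, 4.70, 4.94 and 4.42 before irradiation and at 4.08, 4.83, 3.95, 4.74 and 4.24 at day 30, with overlap. It gave smaller values, -0.23 ± 0.15, -0.41 ± 0.17 and -0.40 ± 0.20 on the 3 days (adjusted p = 0.509, 0.426 and 0.347). With the scaling of the report, the mean level of the first probe was highest before irradiation (2.86 ± 0.31, SD, n = 5), then at day 2 (2.53 ± 0.34), day 5 (2.30 ± 0.47) and lowest at day 30 (2.07 ± 0.34). The 95% interval of each difference between neighbours in that order included 0. With normexp background correction the changes at day 2 were larger, -0.78 for the first probe and -0.74 for the second, so the order of the days depended on the processing. The genes most like IL2RG were NUP210 (r = 0.886) for the first probe and HIRIP3 (r = 0.93) for the second.

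IL4R, the chain that binds IL-4, had 3 probes that did not move together, with r from 0.203 to 0.411 between them over 20 arrays. The bright probe, A_23_P129556, was lower in 5 of 5 pairs at day 5. It stood at 5.31, 4.95, 4.92, 5.06 and 4.63 before irradiation and at 4.67, 4.62, 4.72, 4.76 and 4.28 at day 5. At day 2 it stood at 4.95, 4.66, 5.26, 4.81 and 4.46, and at day 30 at 4.37, 4.70, 4.46, 4.88 and 5.14. All groups overlapped, and the changes were -0.14 ± 0.16, -0.36 ± 0.14 and -0.26 ± 0.22 at days 2, 5 and 30 (adjusted p = 0.703, 0.403 and 0.57). Without replicate 1 the change at day 30 was -0.09.

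A second IL4R probe, A_33_P3349045 at hg19 chr16:27357879-27357938, was lower in 5 of 5 pairs at days 2 and 30. Its changes were -0.43 ± 0.17, -0.50 ± 0.23 and -0.57 ± 0.22 on the 3 days (adjusted p = 0.307, 0.459 and 0.247), and with normexp background correction the change at day 2 was 0.18. The third, A_33_P3395947, near background on most arrays, ranged from -5.17 to -1.89 and gave changes of -0.33 ± 0.30, -0.14 ± 0.39 and -0.13 ± 0.38 (adjusted p = 0.621, 0.912 and 0.892). Its sign turned without replicate 2 or 5 at day 5 and without replicate 1 or 3 at day 30.

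IL13RA1, which pairs with IL4R to form the IL-4 and IL-13 receptor of myeloid and other non-lymphoid cells, had both probes above their earlier mean on every day. Probe A_24_P280113 stood at 3.89, 3.58, 4.06, 3.36 and 3.95 before irradiation. At day 2 it stood at 5.45, 3.73, 5.10, 4.62 and 5.06, and the array of replicate 2 was the only one of these inside the pre-irradiation range. At day 5 its levels were 4.40, 3.97, 4.10, 4.05 and 5.31, and at day 30 they were 5.27, 4.37, 4.37, 3.47 and 5.26.

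The change of this IL13RA1 probe was 1.03 ± 0.21 at day 2, or 2.04-fold higher (adjusted p = 0.15), and 0.47 with normexp background correction. It was 0.60 ± 0.20 at day 5 (adjusted p = 0.366) and 0.78 ± 0.23 at day 30 (adjusted p = 0.173), and it was higher in 5 of 5 pairs on each of the days. The probe across the intron, A_24_P288685, stood at -1.36, -1.65, -0.42, -1.70 and -0.70 before irradiation and at 0.17, -1.06, -0.01, -0.72 and 0.16 at day 2. Every replicate was above its own earlier array, while the groups overlapped. At days 5 and 30 it ranged from -1.05 to 0.09 and from -1.15 to 0.28. Its changes were 0.87 ± 0.19 (adjusted p = 0.158), 0.69 ± 0.21 (adjusted p = 0.336) and 0.61 ± 0.26 (adjusted p = 0.272), higher in 5, 4 and 4 of 5 pairs. The pair of probes correlated at r = 0.85 over the 20 arrays. Both were called at day 2 in 4 other settings, with adjusted p from 0.0522 to 0.0993, and without replicate 2 the first rose by 1.24 (adjusted p = 0.0446). The mean level was in the order day 2 (4.79 ± 0.66, SD, n = 5), day 30 (4.55 ± 0.75), day 5 (4.37 ± 0.55) and pre-irradiation (3.77 ± 0.29), and the 3 later groups overlapped.

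Neutrophil and monocyte genes were higher on the same days. All 10 neutrophil genes tested were higher on each day, with median changes of 1.004, 0.62 and 1.02 at days 2, 5 and 30, and all 8 monocyte genes were, with medians of 0.67, 0.41 and 0.81. The summed neutrophil level lay between 7.47 and 9.05 before irradiation, 8.54 and 10.2 at day 2, 8.18 and 9.72 at day 5, and 8.52 and 10.4 at day 30 (log2). The summed monocyte level lay between 6.77 and 8.31, 7.80 and 8.69, 6.92 and 8.52, and 7.81 and 8.86 in the same order. Platelet genes were higher at day 2 as well, 7 of 7 at an unadjusted p under 0.005 in limma, against 2.66% of all probes in either direction. Their median change was 1.49 at day 2 and -0.11 at day 30. Compared with day 2, 7 of 7 were lower at day 30 (-1.65). Of 7 erythroid genes, 5 were lower at day 2 (median change -0.10) and 6 at day 30 (-0.69). The part of these 4 kinds of cells in the levels of IL13RA1, IL6R, IL10RB and IL17RA was not tested. The genes most like IL13RA1 were CD63, a membrane protein of granules and lysosomes (r = 0.922), for the first probe and LMO2, a haematopoietic transcription cofactor (r = 0.932), for the second.

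**Figure D2:**
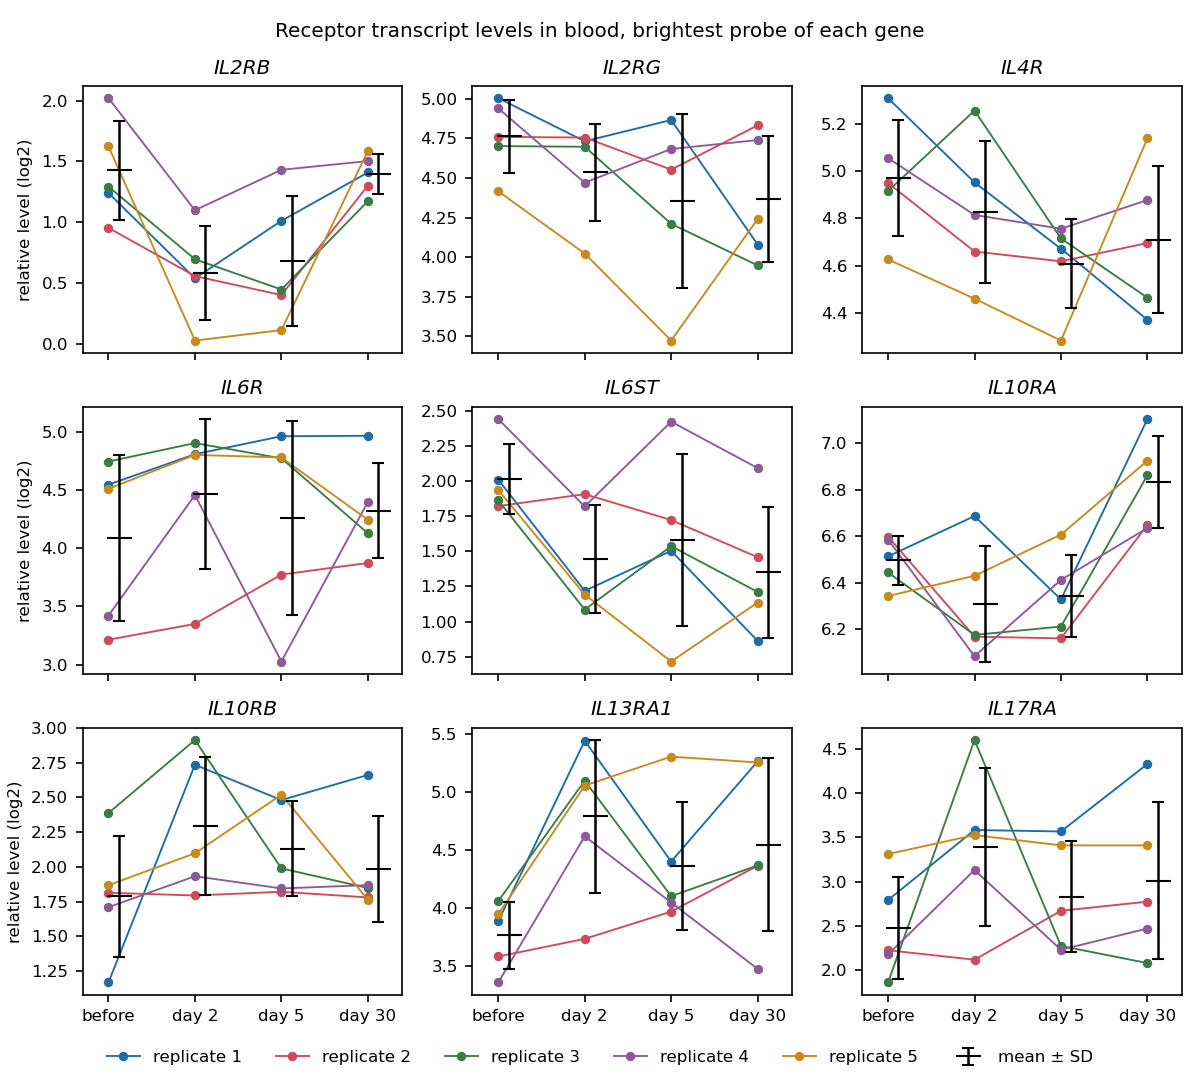
Relative level (log2 signal minus the array's 75th percentile) of the brightest probe of each of the 9 receptor genes over the 4 time points, with a line for each replicate number and black bars for mean ± SD of 5 arrays. IL2RB dipped at days 2 and 5 and stood at 1.17 to 1.59 at day 30, and IL10RA stood at 6.63 to 7.10 at day 30, above every pre-irradiation array.

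IL6R, which binds IL-6, was higher in 5 of 5 pairs at day 2 by a small amount. Its levels were 4.55, 3.21, 4.74, 3.42 and 4.51 before irradiation and 4.81, 3.35, 4.90, 4.46 and 4.80 at day 2. At day 5 they were 4.96, 3.77, 4.77, 3.03 and 4.78, and at day 30 they were 4.96, 3.87, 4.13, 4.40 and 4.24. Replicate 2 was the lowest array before irradiation and at day 2, and replicate 4 was also low before irradiation and the lowest at day 5. The changes were 0.38 ± 0.18, 0.18 ± 0.18 and 0.23 ± 0.25 (adjusted p = 0.375, 0.733 and 0.664), and with normexp background correction the change at day 2 was -0.18. Without replicate 4 the change was 0.21 at day 2 and 0.05 at day 30. IL6R levels ran closest to those of PLXNC1, a semaphorin receptor (r = 0.96).

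IL6ST, or gp130, which passes on the signals of IL-6, IL-11, LIF and oncostatin M, was read by 7 probes, all with a lower mean on every day, except that with normexp background correction 3 were above 0 at day 2 and 1 at day 30. Their change ran from -0.65 to -0.14 at day 2, from -0.43 to -0.17 at day 5 and from -0.68 to -0.09 at day 30. For A_32_P45168, 1 of the 7, the annotated hg19 position spans only 15 bases, so where the whole probe lies is not known. The brightest, A_33_P3233841, stood at 2.01, 1.82, 1.86, 2.44 and 1.94 before irradiation. At day 2 it stood at 1.22, 1.91, 1.09, 1.82 and 1.19. Replicates 1, 3, 4 and 5 were below every array from before irradiation, replicate 4 only narrowly (1.818 against 1.821). At day 5 it stood at 1.50, 1.72, 1.54, 2.42 and 0.72, and at day 30 at 0.86, 1.46, 1.21, 2.09 and 1.13. At day 30 each array was below that of its own number before irradiation.

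The changes of this IL6ST probe were -0.57 ± 0.18 at day 2 (1.48-fold lower, adjusted p = 0.229), -0.43 ± 0.20 at day 5 (adjusted p = 0.473) and -0.66 ± 0.19 at day 30 (1.58-fold lower, adjusted p = 0.166). The probe with the tryptophan-serine codons, A_33_P3287338, gave -0.65 ± 0.24, -0.31 ± 0.26 and -0.68 ± 0.26 (adjusted p = 0.285, 0.672 and 0.243). Without replicate 5 its change at day 5 was -0.008. In the 21 pairings of the 7 probes r ran from 0.277 to 0.96, with a median of 0.816. The probe that stood apart was A_32_P223777 at hg19 chr5:55231134-55231193, with changes of -0.14 ± 0.17, -0.17 ± 0.16 and -0.09 ± 0.20 (adjusted p = 0.718, 0.71 and 0.856) and levels that followed the replicate number. Without replicate 2, 4 IL6ST probes fell at day 2, by 0.73 to 0.90 on the log2 scale (adjusted p from 0.0726 to 0.0897).

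The genes most like IL6ST included IL7R, the IL-7 receptor chain of T cells, for 3 of its 7 probes (r = 0.932, 0.925 and 0.864). SEPT6 was among them for A_23_P502470, A_33_P3233841, A_33_P3233843 and A_33_P3287338 (r = 0.925, 0.918, 0.882 and 0.899). The highest r of any gene with an IL6ST probe was that of ABCG2 with A_23_P502470 (0.948). IL6ST and IL13RA1 ran in opposite directions over the 20 arrays, with r = -0.863 between their brightest probes. T cell markers were lower beside IL6ST, with 12 of 12 genes lower at day 2 (median change -0.47), 11 of 12 at day 5 (-0.30) and 12 of 12 at day 30 (-0.31). The summed T cell level lay between 7.23 and 7.79 before irradiation, 6.83 and 7.45 at day 2, 6.56 and 8.09 at day 5, and 6.64 and 7.58 at day 30. All 8 B cell genes tested were also lower at days 2 and 5, with median changes of -0.55 and -0.50, and 6 of 8 at day 30 (-0.46). The part of these cells in IL6ST, IL2RG and IL4R levels was not tested.

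**Figure D3:**
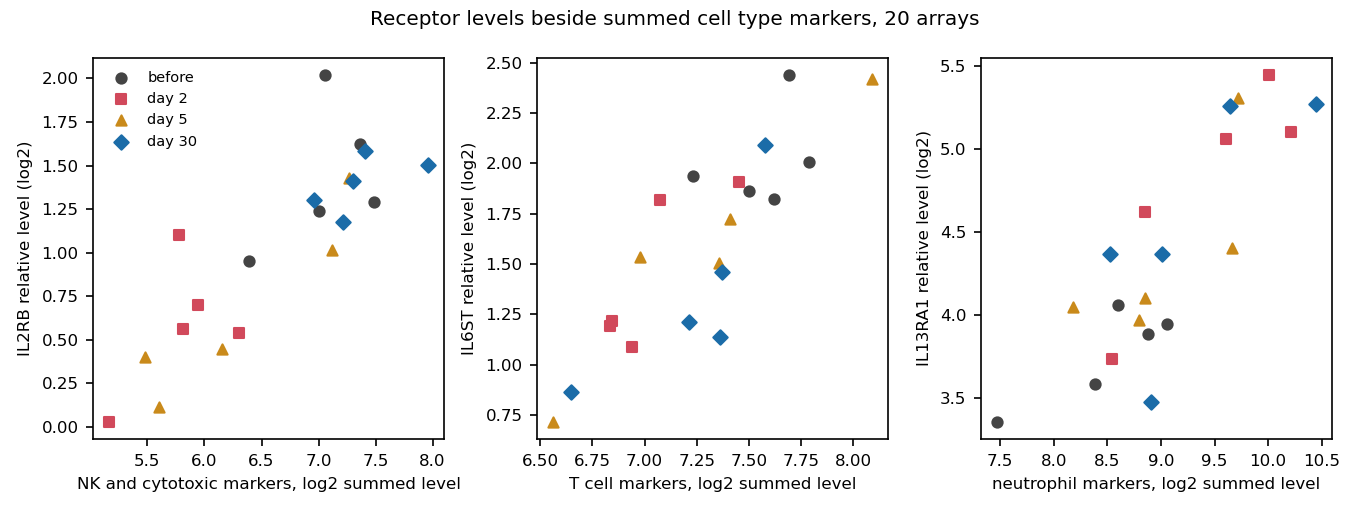
Relative level of the brightest IL2RB, IL6ST and IL13RA1 probes (log2) on each of the 20 arrays against the log2 summed level of NK and cytotoxic, T cell and neutrophil marker genes, with symbols for the 4 time points. The 5 day 2 arrays lie at NK marker levels of 5.16 to 6.31, below all pre-irradiation and day 30 arrays, and at IL2RB levels of 0.03 to 1.10.

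IL10RA, the chain that binds IL-10, was at its highest at day 30. Its levels were 6.51, 6.60, 6.44, 6.59 and 6.34 before irradiation, 6.69, 6.17, 6.18, 6.09 and 6.43 at day 2, and 6.33, 6.16, 6.21, 6.41 and 6.61 at day 5. At day 30 they were 7.10, 6.65, 6.86, 6.63 and 6.92, all above the highest array before irradiation. The groups did not overlap in this direction for 1.09% of all probes. The change was -0.19 ± 0.17, -0.15 ± 0.15 and 0.34 ± 0.18 at days 2, 5 and 30 (adjusted p = 0.619, 0.732 and 0.358), the last 1.26-fold higher in 5 of 5 pairs.

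Against day 2, IL10RA was higher at day 30 by 0.52 ± 0.13 or 1.44-fold, in 5 of 5 pairs (adjusted p = 0.33). At day 30 versus day 5, 0 of 21 receptor probes were called, as were 0 of all probes (0%). At an unadjusted p under 0.05, 2 were higher, against 2.53% of all probes, and 0 were lower, against 5.77%. IL10RA was higher at day 30 by 0.49 ± 0.17 in 5 of 5 pairs (adjusted p = 0.587). IL10RA levels of days 5 and 30 did not overlap, as for 0.25% of all probes. IL2RB, the other of the 2, was higher by 0.71 ± 0.23 in 5 of 5 pairs (adjusted p = 0.587). At day 5 versus day 2, 0 of 21 were called, as were 0 of all probes (0%), and 0 were at an unadjusted p under 0.05, against 3.47% of all probes. The gene most like IL10RA was EIF4E2, a cap-binding translation factor (r = 0.868).

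IL10RB, the second chain of the IL-10 receptor, which also serves IL-22 and IL-26, changed by 0.51 ± 0.24, 0.34 ± 0.25 and 0.20 ± 0.28 on the 3 days (adjusted p = 0.374, 0.622 and 0.754). Its levels before irradiation were 1.17, 1.81, 2.39, 1.71 and 1.87, and at day 2 they were 2.73, 1.79, 2.91, 1.93 and 2.10. Day 5 gave 2.48, 1.82, 1.99, 1.84 and 2.52, and day 30 gave 2.66, 1.78, 1.85, 1.87 and 1.76. The differences rested mostly on replicate 1, the lowest before irradiation. Without it the changes were 0.24, 0.10 and -0.13. The gene most like IL10RB was GNG5, a G-protein subunit (r = 0.938).

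IL17RA, the shared chain through which IL-17A and IL-17F act, was higher at day 2 in 4 of 5 pairs by all 3 probes. The brightest, A_33_P3540143, stood at 2.79, 2.22, 1.86, 2.17 and 3.31 before irradiation and at 3.58, 2.11, 4.60, 3.13 and 3.53 at day 2. At day 5 it stood at 3.57, 2.67, 2.27, 2.23 and 3.41, and at day 30 at 4.33, 2.77, 2.08, 2.47 and 3.41. By this probe replicate 2 was the pair that was not higher at day 2, while by the other two it was replicate 5 (-0.04 and -0.01). Replicate 3 differed most by all 3 probes.

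The changes of this IL17RA probe were 0.92 ± 0.38 at day 2, or 1.89-fold, 0.36 ± 0.16 at day 5 and 0.54 ± 0.24 at day 30 (adjusted p = 0.316, 0.46 and 0.284). Without replicate 3 the change at day 2 was 0.47, with normexp correction it was 0.38, and without replicate 1 the change at day 30 was 0.29. The other two gave 1.03 ± 0.37 (A_23_P17706) and 0.86 ± 0.29 (A_33_P3224809) at day 2 (adjusted p = 0.266 and 0.249), or 0.64 and 0.29 with normexp correction. The 3 probes correlated at r = 0.875 to 0.931. The genes most like IL17RA were OSBPL2, a lipid transfer protein (r = 0.964), and PGD, an enzyme of the pentose phosphate pathway (r = 0.957).

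Ligands of these receptors were mostly too dim to test. Of 21 ligand genes on the array, 8 had a tested probe, and those of IL15 and IL10 did not. None was called on any day. OSM, which encodes the gp130 ligand oncostatin M and was named after its values were seen, was higher by 0.47 ± 0.20 at day 2 and by 0.60 ± 0.23 at day 30 (adjusted p = 0.327 and 0.245).

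Of 14 partner chains and other receptor genes tested, 0 were called. At an unadjusted p under 0.05, 1 was higher and 2 were lower at day 2, 1 was higher and 2 were lower at day 5, and 0 were higher and 4 lower at day 30, where 8.91% and 5.92%, 7.2% and 4.15%, and 8.58% and 8.97% of all probes were. The mean was lower for 11, 11 and 12 of the 14 genes on these days, with median changes of -0.19, -0.10 and -0.31, beside -0.02, 0.02 and 0.01 for all probes. IL7R was lower in 5 of 5 pairs on each day, by -0.67 ± 0.18, -0.61 ± 0.23 and -0.61 ± 0.23 (adjusted p = 0.192, 0.396 and 0.238). IL27RA, a gp130 partner named after its values were seen, was lower in 5 of 5 pairs each time, by -0.56 ± 0.19, -0.50 ± 0.14 and -0.73 ± 0.23 (adjusted p = 0.249, 0.33 and 0.193). CSF2RB, the common beta chain of the IL-3, IL-5 and GM-CSF receptors and also picked after its values were seen, was higher by 0.63 ± 0.19, 0.34 ± 0.15 and 0.48 ± 0.27 (adjusted p = 0.216, 0.44 and 0.381).

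Of 26 JAK-STAT genes tested, 0 were called, and the median changes were 0.13, -0.03 and 0.10 on the 3 days. Of these, 3 were higher and 1 lower at day 2 at an unadjusted p under 0.05, where 8.91% and 5.92% of all probes were. At day 5, 0 were higher and 0 lower, against 7.2% and 4.15% of all probes. At day 30, 2 were higher and 1 lower, against 8.58% and 8.97%. SOCS3, the inhibitor of gp130 signals, was higher in 5 of 5 pairs at day 2 by 1.02 ± 0.28 (adjusted p = 0.194). JAK2 was higher by 0.80 ± 0.26 at day 2 (adjusted p = 0.235), and STAT5B, which acts below IL2RB, by 0.67 ± 0.19 in 5 of 5 pairs at day 30 (adjusted p = 0.166). For JAK1, JAK3, TYK2, STAT3, STAT5A, STAT6 and CISH the adjusted p was from 0.371 to 0.994 over the 3 days. Of 7 genes of the IL-17 adaptors and kinases, 0 were called, and TRAF5 was lower in 5 of 5 pairs at day 2 by -0.57 ± 0.14 (adjusted p = 0.182).

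Of 20 target genes of these receptors, 0 were called, and the median changes were 0.07, 0.07 and -0.03 on the 3 days. Of these genes 7 were higher and 3 lower at day 2 at an unadjusted p under 0.05, 2 higher and 3 lower at day 5, and 6 higher and 2 lower at day 30, beside the shares of all probes just given for those days. CEBPB, an acute phase transcription factor, was higher by 0.82 ± 0.18 at day 2 and by 0.68 ± 0.18 at day 30, in 5 of 5 pairs each (adjusted p = 0.158 and 0.156). ZFP36, which destabilises cytokine mRNA, was higher by 0.80 ± 0.21 at day 2 (adjusted p = 0.184), and BCL6, a transcriptional repressor, by 1.07 ± 0.27 at day 30 (adjusted p = 0.153). BCL2, a survival factor supported by gamma chain cytokines, was lower at day 30 in 5 of 5 pairs by -1.20 ± 0.23 (adjusted p = 0.127). PRF1, the cytotoxic protein perforin and also 1 of the NK markers, was lower by -1.40 ± 0.28 at day 2 (adjusted p = 0.141), and LCN2, a neutrophil granule protein and also a neutrophil marker here, was higher by 1.35 ± 0.29 at day 5 (adjusted p = 0.288).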

How the data were processed

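The authors deposited the scanner output of 20 one-colour arrays, with an intensity (Feature Extraction's processed signal, background subtracted and detrended) for each spot, and a log2 table of 5885 rows that the authors normalised, used here only as an alternative. The file headers give Feature Extraction 12.0.2.2 and the submitters' notes 10.7. Control spots and outlier flags were left out, spots of a probe were averaged, and each array's 75th percentile of log2 intensity was subtracted. Probes well above background on at least 5 arrays were tested with limma 3.58.1 (R 4.3.3) on the arrays of the 2 groups compared, paired through a block for replicate number, with at least 4 pairs, and adjusted by Benjamini-Hochberg over all probes. The method was tested on simulated data in which every array was drawn independently. Those data held no replicate effect, so they cannot test the pairing. The number of arrays limits the precision.

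Following the study's methods, in which comparisons were paired by animal, equal replicate numbers were taken as the same animal, though the labels give the number alone. Arrays of the same number deviated together from their group means with a median r of 0.171 to 0.406 over the 5 numbers, against -0.118 to -0.023 for other numbers. The lowest single value for the same number was -0.162. Deviations from a group mean cancel within the group, which ties the values for other numbers to those for the same number. The values for other numbers are thus not an independent yardstick.

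Receptors, lists and tests were chosen with earlier results of these data known. Genes were named when they were members, fixed examples, list genes at an unadjusted p under 0.005, up to 5 per list and comparison, or the 3 most correlated with a probe, of which the first is given in most cases. OSM, IL27RA and CSF2RB fall outside this rule and were picked after their values were seen. Pathway and marker genes entered with a single probe each, the one with the highest mean. Probe sequences and hg19 coordinates came from the array files. Alternatives were quantile and median scaling, normexp correction with an offset of 50, other filters, the authors' log2 table, other blocks and fits, an FDR of 5% and leaving out each replicate.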

Additional observations from a re-analysis of the deposited data

Results flagged for a closer look

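In 84 groups of 5 arrays (21 probes at 4 time points), 2 held an array far from the others (2.38%), where chance gives about 5%. IL6R on the day 2 array of replicate 2 stood at 3.35, below the next lowest array at 4.46 and the highest at 4.90. IL10RB on the day 30 array of replicate 1 stood at 2.66, above the next highest at 1.87 and the lowest at 1.76.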

How the results depend on the processing

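No receptor probe was called with the settings of the report, and the counts changed under some alternatives. At day 2, 2 probes, both of IL13RA1, were called when the filter asked for all 20 arrays, with the deposited log2 values and with an intensity trend in the spread, and 3, with IL2RB added, with all 20 arrays in one fit. Leaving out each replicate gave 0 to 6 called probes at day 2, the 6 without replicate 2. At day 30, 2 were called with normexp correction and with the filter at all 20 arrays (IL2RG A_23_P148473 and IL6ST A_33_P3233841). A single probe was called at day 30 with all 20 arrays in one fit and with the intensity trend (1, IL2RG each time), and 1 (IL6ST) with normexp without spots of very high local background. At day 30 versus day 2, 1 (IL2RB) was called with all 20 arrays in one fit. Without the replicate block 0 receptor probes and 0 of all probes were called at each of days 2 and 30, as against 11 and 4 with the pairing.

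In these settings many more of all probes were called too. At day 2 they were 209 of 15322 with the stricter filter, 327 of 5653 with the deposited values, 218 of 19961 with the trend, 368 with one fit and 681 without replicate 2. At day 30 they were 899 of 19961 with normexp, 426 in its repeat, 645 of 15322 with the stricter filter, 238 with one fit and 404 with the trend, and at day 30 versus day 2, 178 with one fit. Quantile scaling called 0 at days 2 and 30. The planned normexp correction, which also gave the smaller day 2 changes of IL13RA1 and IL17RA, moved the median change of all probes at day 2 from -0.02 to 0.12. On 3 arrays a few spots of very high local background (up to 15 an array) drew the fitted background mean to between -945 and -209, so the correction was repeated, as a choice made after seeing the data, without spots over 5 times the array's median background, and the fitted means were then -0.21 to 19.2.

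Signs turned for changes that were not called. With normexp correction day 2 gave 0.18 and 0.34 for IL4R A_33_P3349045 and A_33_P3395947, -0.18 for IL6R, and 0.05, 0.02 and 0.18 for IL6ST A_32_P223777, A_33_P3233834 and A_33_P3233843, none of which turned in the repeat. It also gave larger day 2 changes of -0.78 and -0.74 for IL2RG A_23_P148473 and A_33_P3290394, -0.67 for IL4R A_23_P129556 and -0.75 for IL10RA, and a smaller one of 0.04 for IL10RB. At day 30 it gave 0.196 for IL4R A_33_P3395947 and 0.027 for IL6ST A_32_P223777. The repeat gave 0.028 for IL4R A_33_P3395947 at day 5 and 0.001 for IL2RB at day 30, and median scaling gave 0.012 for IL2RB at day 30. Leaving out each replicate, IL4R A_33_P3395947 ranged from -0.52 to 0.11 at day 5 and from -0.45 to 0.20 at day 30, IL2RB at day 30 from -0.127 to 0.089, IL6ST A_32_P223777 at day 30 from -0.202 to 0.083, and IL10RB at day 30 from -0.13 to 0.38. The remaining changes from pre-irradiation kept their direction in the settings run, as did the changes between later days at an unadjusted p under 0.05 in limma. The other differences between later days, such as that of IL2RB between days 5 and 2, are not covered by that statement.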
